A study of Mus musculus with 6 samples.

Results

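Levels of 10 genes of YAP, TEAD and their targets were examined in cultured mouse hepatocytes, out of 55487 genes counted. The genes were taken from a list of symbols and matched to Ensembl identifiers: *Yap1*, *Wwtr1*, *Tead1*, *Ccn1* (also known as *Cyr61*), *Ccn2* (also known as *Ctgf*), *Ankrd1*, *Amotl2*, *Ajuba*, *Lats2* and *Axl*. All 10 were found and all 10 passed the filter on low counts, among the 12741 genes tested. RNA was sequenced from hepatocytes of adult mice (6 to 8 weeks old) of 2 genotypes, 3 libraries each: wild type (AEG-1-WT) and homozygous AEG-1-C75S, in which the cysteine of AEG-1 that carries a palmitate is a serine. AEG-1 is the product of *Mtdh*. Mice of both genotypes came from crosses of AEG-1-C75S heterozygotes, the cells had been out of the liver for 48 h, and all libraries carry the treatment label Control. The animals carried the change from conception, so it is not limited to hepatocytes. Whether the replicates are different animals is not stated in the labels, and p-values then measure the spread between these libraries, which may be technical.

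YAP (*Yap1*) and its relative TAZ (*Wwtr1*) are coactivators with no DNA-binding domain of their own. They enter the nucleus and act through TEAD transcription factors, which recognise a short motif with the core GGAATG. The Hippo kinases, ending in LATS1 and LATS2, phosphorylate YAP and TAZ and hold them in the cytoplasm. In liver the pathway is known for its part in organ size and in hepatocyte identity, and stiff substrates and loss of cell contact activate YAP in culture. Most of this control acts on the proteins, which RNA counts do not read. Target mRNAs such as *Ccn1*, *Ccn2* and *Ankrd1* are the usual transcriptional readout, and some targets, *Lats2* and *Amotl2* among them, encode inhibitors of YAP.

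The sites below show the TEAD core motif where it stood in the promoters of the genes measured here. RefSeq promoter windows (GRCm38.p6) were matched for 8 of the 10 genes, and *Tead1* and *Ccn2* were not among them. The 250 bases before each start were searched for GGAATG on both strands. Of the 8 genes, 7 held at least 1 match and *Lats2* held 0 in both of its windows. Of all 32851 RefSeq windows of the same length, 12.6% held a match, and 14.4% of the 27025 gene symbols did. Each site is given as 30 bases in the direction of the gene, with the motif in capitals (CATTCC is GGAATG read on the other strand).
Yap1 (chr9:8004720-8004749, minus strand): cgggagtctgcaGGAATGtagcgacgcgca
Wwtr1 (chr3:57576029-57576058, minus strand): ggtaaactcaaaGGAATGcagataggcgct
Ccn1 (chr3:145650071-145650100, minus strand): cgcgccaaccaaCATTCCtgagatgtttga
Ankrd1, farther site (chr19:36120037-36120066, minus strand): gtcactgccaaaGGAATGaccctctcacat
Ankrd1, nearer site (chr19:36119950-36119979, minus strand): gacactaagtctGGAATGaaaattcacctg
Amotl2 (chr9:102717727-102717756, plus strand): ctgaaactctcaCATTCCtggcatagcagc
Ajuba, farther site (chr14:54577830-54577859, minus strand): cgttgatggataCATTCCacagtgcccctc
Ajuba, nearer site (chr14:54577808-54577837, minus strand): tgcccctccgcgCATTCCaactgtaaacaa
Axl (chr7:25788949-25788978, minus strand): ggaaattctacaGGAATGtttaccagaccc

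The 9 matches lay between 233 and 60 bases before the RefSeq start, with that of *Axl* the farthest and that of *Amotl2* the nearest. *Ankrd1* and *Ajuba* held 2 matches each, and 1.02% of all windows held at least 2. Of the 9 sites, 6 lie upstream of the gene in GENCODE M21. The sites of *Ankrd1* and *Amotl2* lie within a 5′ UTR exon of a transcript that GENCODE starts farther upstream. A match is a run of letters and does not show that TEAD was bound there.

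**Figure D1:**
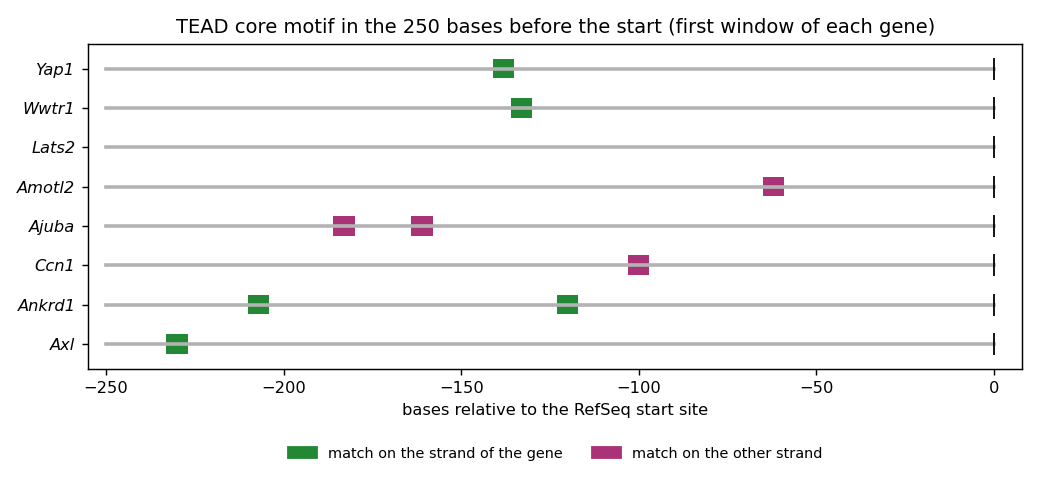
Positions of the TEAD core motif (GGAATG, 6 bases, drawn to scale) in the 250 bases before the RefSeq start of 8 genes; the x axis is in bases relative to the start, and green and purple blocks are matches on the strand of the gene and on the other strand. *Ankrd1* and *Ajuba* have 2 matches each, and *Lats2* has 0.

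The libraries held 16944723 to 21044292 counts on genes, and 3 counts corresponded to 0.142 to 0.172 CPM (counts scaled to the TMM-adjusted library size). *Mtdh* itself was at 192 to 212 CPM in C75S and 191 to 201 CPM in WT (edgeR adjusted p = 0.909), and a gene count does not read the codon that differs. The hepatocyte label was checked against 8 markers, which summed to 74430 to 91150 CPM in every library. Of the markers of other cells, those of Kupffer cells and macrophages summed to at most 2.56 CPM, and those of mesothelial cells and lymphocytes to at most 0.474 CPM, in any library. Stellate cell and fibroblast markers summed to 55.0 to 71.6 CPM in C75S and 70.4 to 93.1 CPM in WT, of which *Reln* alone was 49.9 to 88.1 CPM, while *Pdgfrb* and *Des* stayed at or under 0.214 CPM in every library. Without *Reln* the sums were 4.39 to 6.37 CPM in C75S and 4.61 to 5.09 CPM in WT. Endothelial markers summed to 31.6 to 42.2 CPM in C75S and 30.1 to 40.8 CPM in WT, with *Stab2* at 20.5 to 32.8 CPM. The groups overlapped for *Stab2* (log2 fold change -0.09). Of the 5 tested endothelial markers, 4 had log2 fold changes above 0 (median 0.69), against 6259 of all 12741 genes tested. *Pecam1*, *Kdr* and *Lyve1* did not overlap between genotypes, with C75S above WT, as in 9.02% of all genes tested. *Lyve1* had the smallest p of them, at 2.09 to 2.99 CPM in C75S and 1.17 to 1.66 CPM in WT (log2 fold change 0.85, edgeR adjusted p = 0.131). Cholangiocyte markers were the only one of the 7 marker lists whose sums in C75S all lay above those in WT, at 181 to 230.0 CPM against 156 to 167 CPM. In that list 1 of 6 tested markers was called higher, *Krt19*, against 1.74% of all genes tested. *Spp1* made up most of the sum, while *Cftr* had 0 counts and *Epcam* stayed at or under 0.57 CPM. In bulk RNA, more cells of a type and more RNA per cell cannot be told apart.

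Targets stood at both the top and the bottom of the 10 mRNAs in level. On the scale of CPM per kb of exon, which allows genes to be compared, *Ccn2* stood first in WT at 289 ± 8.65 (mean ± SD, n = 3), and *Ccn1* second at 122 ± 11.3. Both encode secreted CCN matrix proteins. *Ajuba*, a LIM-domain scaffold that binds LATS kinases, followed at 59.0 ± 0.99, and *Amotl2*, an angiomotin that binds and retains YAP, at 30.1 ± 0.51. *Ankrd1*, a nuclear ankyrin-repeat protein, was at 16.4 ± 1.22, *Wwtr1* at 15.2 ± 0.08 and *Yap1* at 14.7 ± 0.75 CPM per kb. The ranges of *Ankrd1* and *Wwtr1* overlapped in WT, as did those of *Wwtr1* and *Yap1*, so their order was within the spread between libraries. *Tead1* stood at 9.01 ± 0.67 and *Lats2* at 3.81 ± 0.24 CPM per kb. *Axl*, a receptor tyrosine kinase, was last at 0.0699 ± 0.0421 CPM per kb. The order in C75S was identical, from *Ccn2* at 333 ± 8.58 to *Axl* at 0.112 ± 0.0233 CPM per kb, and there no neighbours overlapped. The length is that of all annotated exons joined, which for *Tead1* came to 13.6 kb, and a gene whose long exons are rarely used is placed lower by this measure. *Lats2* shares 56.9% of its longest transcript with the predicted gene *Gm49361*. Reads there could be counted for neither gene, which would also place *Lats2* lower.

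**Figure D2:**
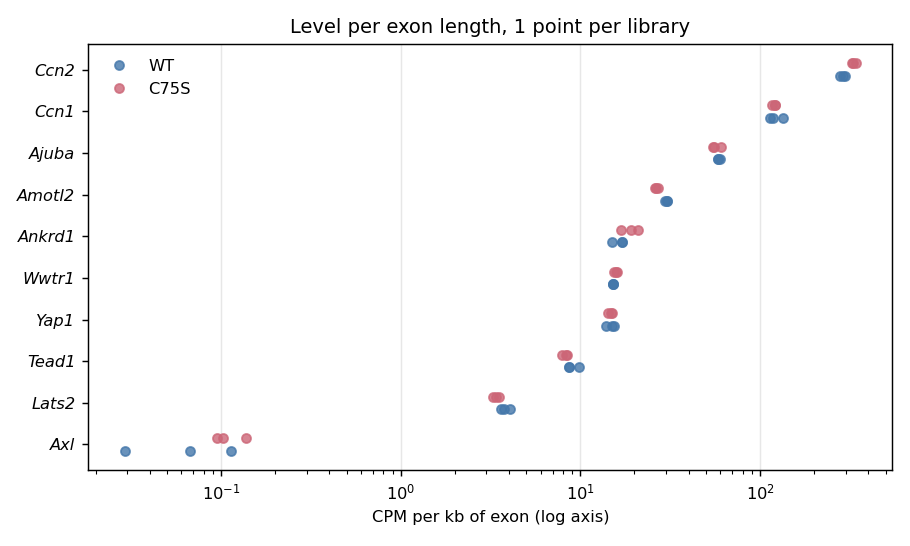
Level of each of the 10 genes in CPM per kb of exon on a log axis, with 1 point per library (blue WT, red C75S, 3 libraries each). *Ccn2* and *Ccn1* lie at the top, *Yap1*, *Wwtr1* and *Ankrd1* close together, and *Axl* far below the rest.

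Between genotypes, the coactivators did not differ detectably, 1 target was higher and 1 target that restrains YAP was lower in C75S. *Ccn2* rose to 115% of its WT mean and *Amotl2* fell to 88.0% of its own. These were the 2 of 10 genes called in edgeR's quasi-likelihood test, 1 in each direction, against 3.11% of the 12741 genes tested (222 higher, 1.74%, and 174 lower, 1.37%). An unadjusted p under 0.05 was reached by 4 of the 10, against 13.4% of all genes. The median log2 fold change of the 10 was -0.01, beside -0.003 over all genes tested, and the median size was 0.15 beside 0.09. The 2 genotypes did not overlap in 5 of the 10 genes, 2 with C75S above (9.02% of all genes) and 3 with C75S below (8.96% of all genes), against 18.0% of all genes in either direction.

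The mRNAs of both coactivators and of *Tead1* did not pass the test. *Yap1* (chromosome 9, 7931999 to 8004596, minus strand of GRCm38) was at 131, 138 and 138 CPM in C75S and at 128, 142 and 139 CPM in WT. The groups overlapped throughout. The log2 fold change was -0.004 (SE 0.05), with a 95% interval from -0.11 to 0.10 (edgeR adjusted p = 0.983). *Wwtr1* (chromosome 3, 57455649 to 57575910) was at 73.4, 76.3 and 75.8 CPM in C75S and at 72.2, 72.9 and 72.8 CPM in WT. Every C75S library lay above every WT library, but by little: the log2 fold change was 0.05 (SE 0.05, interval -0.06 to 0.16, edgeR adjusted p = 0.753). *Tead1* (chromosome 7, 112679318 to 112906807), a TEAD factor with wide expression, was at 108, 113 and 114 CPM in C75S and at 133, 117 and 117 CPM in WT. The groups did not overlap, and WT replicate 1 stood above the other WT libraries. Its log2 fold change of -0.13 (SE 0.06, interval -0.25 to -0.02) did not pass the threshold (edgeR adjusted p = 0.269), and without WT replicate 1 it was -0.07.

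Of the 3 genes that encode inhibitors of YAP or partners of LATS kinases, *Amotl2* fell and *Lats2* and *Ajuba* did not pass the test. *Amotl2* (chromosome 9, 102716672 to 102733418), whose promoter site is printed above, was at 167, 169 and 163 CPM in C75S and at 185, 192 and 190.1 CPM in WT. The libraries of each genotype lay close together and the groups were well apart. The mean was 166 ± 2.82 CPM in C75S and 189 ± 3.22 CPM in WT (SD over 3 libraries each). On the log2 scale the change was -0.18 with an SE of 0.05 (edgeR adjusted p = 0.0296). *Lats2* (chromosome 14, 57689662 to 57758388), the kinase that phosphorylates YAP and TAZ, was at 24.5, 22.9 and 23.8 CPM in C75S and at 25.1, 26.3 and 28.3 CPM in WT. Here too the groups did not overlap, and the log2 fold change was -0.17 (SE 0.08, interval -0.34 to 0.005, edgeR adjusted p = 0.394). The predicted gene *Gm49361* shares 56.9% of the longest *Lats2* transcript on the same strand, so reads there could be counted for neither gene; *Gm49361* had 0 counts. *Ajuba* (chromosome 14, 54567472 to 54577558) was at 199.5, 220.2 and 203 CPM in C75S and at 219, 214 and 212 CPM in WT. One C75S library was above all WT libraries and the other 2 were below them. The log2 fold change was -0.05 (SE 0.05, edgeR adjusted p = 0.737).

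Of the target genes *Ccn1*, *Ccn2* and *Ankrd1*, which are used as a readout of YAP, only *Ccn2* was called. *Ccn2* (chromosome 10, 24595442 to 24598683, plus strand), the most abundant of them, was at 929.9, 947 and 978 CPM in C75S and at 850.2, 830.4 and 801 CPM in WT. All C75S libraries were above all WT libraries. The mean was 952 ± 24.5 CPM in C75S and 827 ± 24.7 CPM in WT (SD over 3 libraries each). On the log2 scale the change was 0.20 with an SE of 0.05 (edgeR adjusted p = 0.029). *Ccn1* (chromosome 3, 145646976 to 145649981), its close relative and like it a classical YAP target, was at 246, 244 and 236 CPM in C75S and at 271, 237 and 228 CPM in WT. The groups overlapped, with WT replicate 1 the highest and the other 2 WT libraries on both sides of the lowest C75S library. Its log2 fold change was -0.02 (SE 0.06), and the 95% interval from -0.14 to 0.09 lay wholly below the estimate for *Ccn2*. Without WT replicate 1 the log2 fold change of *Ccn1* was 0.06. The difference between the fold changes of the 2 genes was not tested.

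*Ankrd1* (chromosome 19, 36111961 to 36120099), with 2 TEAD matches in its promoter, was at 60.4, 55.5 and 48.8 CPM in C75S and at 49.1, 49.3 and 43.1 CPM in WT. The lowest C75S library fell within the WT range. The log2 fold change of 0.22 (SE 0.07, interval 0.06 to 0.37) was similar in size to that of *Ccn2* but had a wider spread and was not called (edgeR adjusted p = 0.136). Without C75S replicate 3 it was 0.30 and was called (edgeR adjusted p = 0.0287), whereas it was 0.15 without C75S replicate 1 (0.517) and 0.16 without WT replicate 3 (0.42). *Axl* (chromosome 7, 25757273 to 25788705) rested on 9, 10 and 13 counts in the C75S libraries and on 12, 3 and 7 counts in WT. At this depth the interval of its log2 fold change ran from -0.45 to 1.77, so neither a rise nor a fall could be detected.

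**Figure D3:**
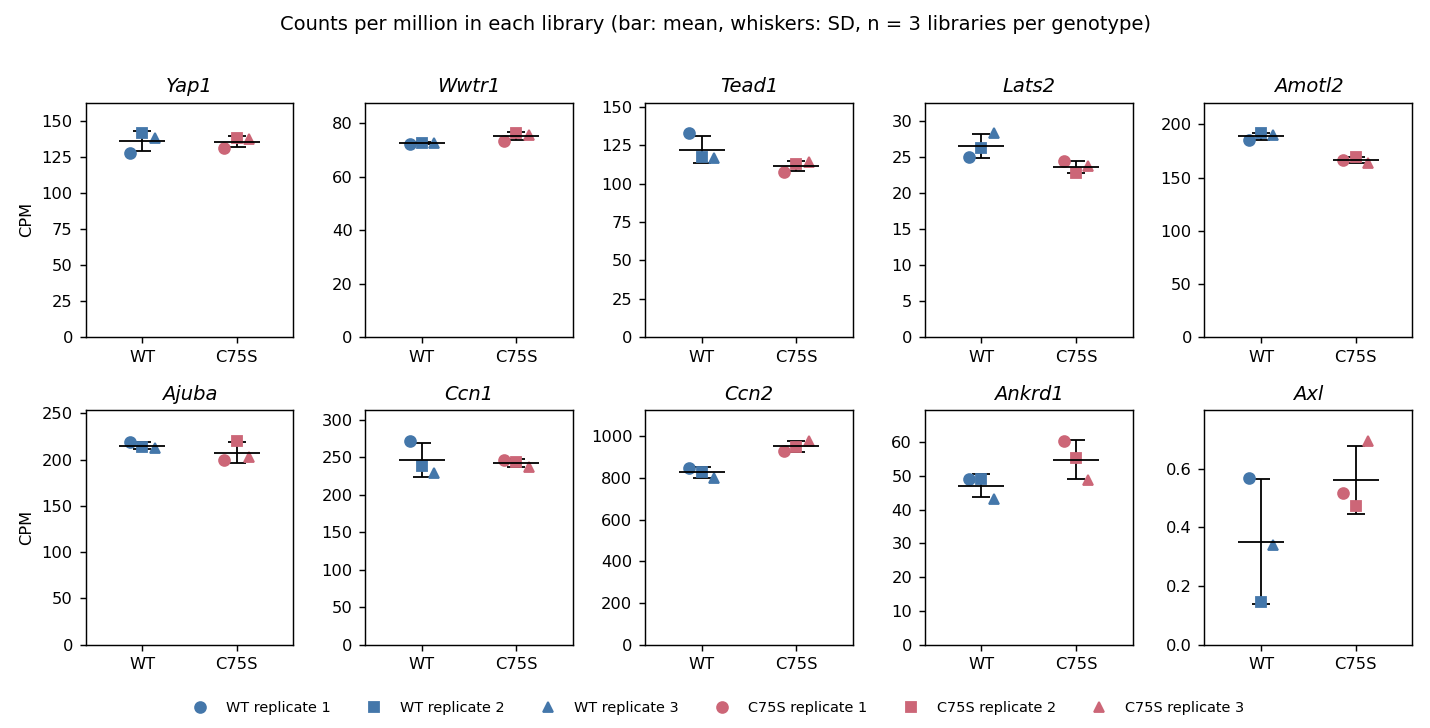
CPM of each of the 10 genes by genotype on axes that start at 0, with 1 point per library, a bar at the mean and whiskers of 1 SD (n = 3). *Ccn2* is higher in all C75S libraries, *Amotl2* lower in all of them, and *Yap1* and *Ccn1* overlap.

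Both calls were lost in several fits that left out 1 library, as the plot of fold changes under each setting shows. *Ccn2* lost its call without C75S replicate 2 (edgeR adjusted p = 0.0746), C75S replicate 3 (0.108), WT replicate 2 (0.14) or WT replicate 3 (0.145), while its log2 fold change stayed between 0.18 and 0.22 over 15 alternatives. *Amotl2* lost its call without any 1 of the C75S libraries (0.0755, 0.0657 and 0.127), WT replicate 2 (0.152) or WT replicate 3 (0.0891), while its log2 fold change stayed between -0.20 and -0.17. In no alternative did either gene change direction. The sum of cholangiocyte markers, at 181 to 230.0 CPM in C75S and 156 to 167 CPM in WT, was also higher in all C75S libraries. Most of that sum was *Spp1*, at 105 to 157 CPM in C75S and 83.9 to 96.5 CPM in WT. Of the 6 tested markers in that list, 2 did not overlap between genotypes, with C75S above, against 9.02% of all genes. Of the 5 tested endothelial markers, 3 were higher in all C75S libraries, against 9.02% of all genes, while *Stab2* and the endothelial sum overlapped. The part of these cells in the result was not tested. Stellate cells and fibroblasts are a known source of *Ccn2* in liver, and their part was not tested either.

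**Figure D4:**
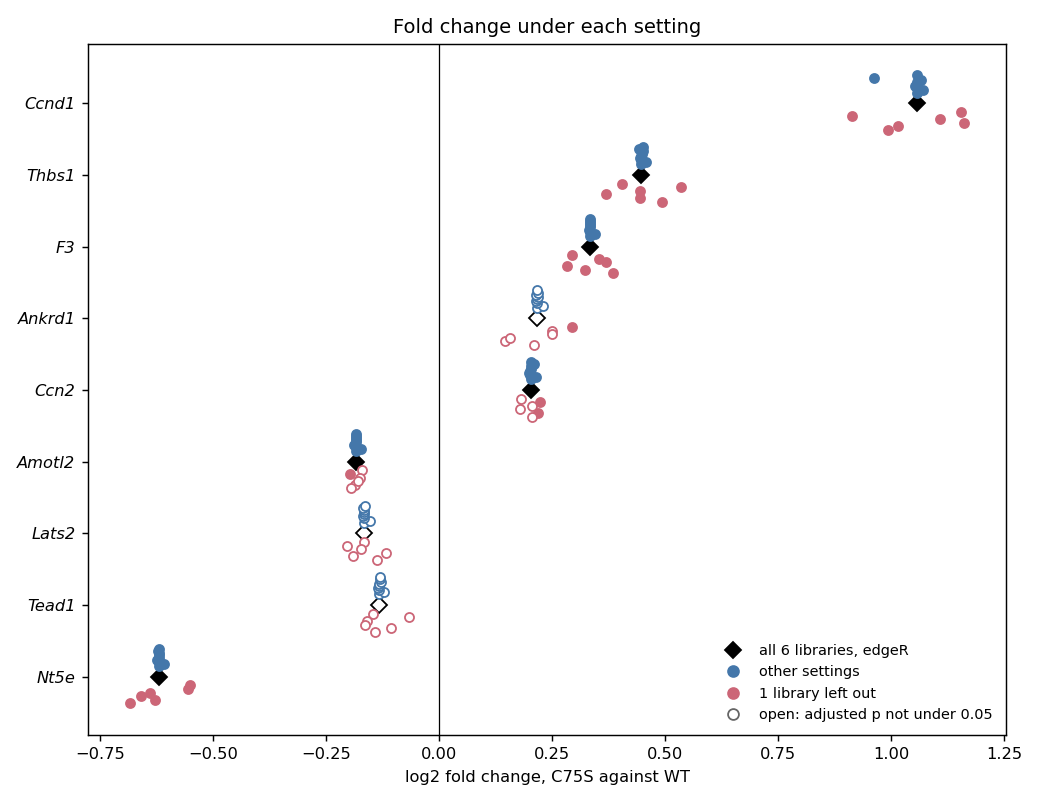
Log2 fold change of C75S against WT for 9 genes with all 6 libraries in edgeR (black diamonds), under the other settings (blue) and with 1 library left out (red); filled symbols have an adjusted p under 0.05, and points are spread vertically for sight. *Ccn2* and *Amotl2* keep their size but become open in several fits that leave out a library, whereas *Nt5e*, *F3*, *Thbs1* and *Ccnd1* remain filled in each.

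Likeness was measured by the Pearson correlation of log2 CPM over the 6 libraries, 3 of each genotype, which share depth and scaling across genes, so a difference between genotypes alone can give a high value. Among 9636 genes of at least 5 mean CPM, those most like *Ccn2* were *Arhgef5* (0.994), *Fst* (0.994) and *Mtch1* (0.993). Of these, *Fst*, which encodes the activin-binding protein follistatin, was at 61.2, 63.5 and 65.6 CPM in C75S and at 50.1, 49.7 and 46.7 CPM in WT, and was itself called (log2 fold change 0.38, edgeR adjusted p = 0.000334). Those most like *Ccn1* were *1810022K09Rik* (0.993), *Rabac1* (0.989) and *Spred1* (0.984). Each of these was highest in WT replicate 1, as *Ccn1* was.

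Other genes of the pathway were counted in 4 lists, 54 genes in all, of which 46 were tested, 3 called higher and 1 called lower in C75S, against 1.74% and 1.37% of all genes. Of the 46, 16 (34.8%) did not overlap between genotypes, against 18.0% of all genes. The first list holds the remaining 16 genes of a 22-gene signature of YAP and TAZ targets, the other 6 being among the genes above. Of the 13 tested, 1 rose and 1 fell (1.74% and 1.37% of all genes), and 6 reached an unadjusted p under 0.05 (13.4% of all genes). Their median log2 fold change was 0.14, beside -0.003 over all genes tested. Values were above 0 in 10 of the 13, against 6259 of all 12741 genes tested, and this difference was not tested. *F3*, tissue factor, which starts coagulation, rose from 59.4, 60.8 and 53.7 CPM in WT to 74.2, 68.1 and 77.1 CPM in C75S (log2 fold change 0.33, SE 0.06, edgeR adjusted p = 0.00209). *Nt5e*, the ectonucleotidase CD73 that makes adenosine from AMP, fell from 82.5, 74.0 and 71.8 CPM in WT to 50.1, 53.7 and 44.7 CPM in C75S (log2 fold change -0.62, SE 0.07, edgeR adjusted p = 3.74e-06). The groups did not overlap in either gene, and both stayed under the threshold in 15 of 15 alternatives. With the 6 genes above included, 19 of the 22 signature genes were tested, 2 were called higher (*Ccn2* and *F3*) and 2 lower (*Amotl2* and *Nt5e*), beside 1.74% and 1.37% of all genes.

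The second list holds 10 further genes linked to YAP in growth and in ductal fate. Of the 9 tested, 2 rose (1.74% of all genes), while no call was made in the other direction (1.37% of all genes). *Ccnd1*, cyclin D1, which drives entry into the cell cycle, went from 3.47 to 4.997 CPM in WT to 7.81 to 9.87 CPM in C75S (log2 fold change 1.06, SE 0.16, edgeR adjusted p = 0.000228). *Thbs1*, the matrix protein thrombospondin, went from 84.3, 75.2 and 67.2 CPM to 104, 96.5 and 109 CPM (log2 fold change 0.45, SE 0.07, edgeR adjusted p = 0.000641). The genes of ductal fate in this list were *Sox9*, *Notch2* and the Notch ligand *Jag1*, with log2 fold changes of -0.06, 0.02 and 0.20, and none of these was called (edgeR adjusted p = 0.822, 0.925 and 0.347). They were chosen for mention after their values were seen. Of the cholangiocyte markers above, *Krt19* was called (log2 fold change 0.80), and *Spp1* (0.53) and *Tspan8* (1.05) were not.

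In the third list, TEAD factors and their cofactors, 5 of 7 genes were tested and 0 were called by edgeR, DESeq2 or limma-voom. In each tool 2 were at an unadjusted p under 0.05. Over all genes, edgeR called 3.11%, and 13.4% reached an unadjusted p under 0.05. *Tead4* was at 4.59, 3.56 and 3.69 CPM in C75S and at 1.85, 3.07 and 2.81 CPM in WT (log2 fold change 0.61, SE 0.23, edgeR adjusted p = 0.18). *Tead3* was at 12.5, 16.8 and 15.3 CPM in C75S and at 18.0, 17.5 and 17.95 CPM in WT (log2 fold change -0.26, SE 0.11, edgeR adjusted p = 0.235). Of the 5 tested genes, 3 did not overlap between genotypes, against 18.0% of all genes. *Tead4* and *Tead3* were among them, on opposite sides of 0. *Vgll1* and *Vgll2* had 0 counts in all libraries.

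In the fourth list, Hippo kinases and upstream regulators, 19 of 21 genes were tested and 0 were called by edgeR, DESeq2 or limma-voom. In these tools 3, 1 and 3 genes were at an unadjusted p under 0.05. Over all genes, the edgeR shares were 3.11% called and 13.4% at an unadjusted p under 0.05. The median log2 fold change of the list was 0.006 and the median size 0.07, beside 0.09 over all genes. *Wtip*, an Ajuba-family LIM protein, had the smallest p, at 1.21, 0.996 and 0.482 CPM in C75S and at 1.57, 1.80 and 1.65 CPM in WT (log2 fold change -0.90, SE 0.35, edgeR adjusted p = 0.218). *Nf2*, the tumour suppressor merlin that activates the kinases, was at 52.5, 53.6 and 52.5 CPM in C75S and at 58.0, 56.6 and 58.3 CPM in WT (log2 fold change -0.13, SE 0.06, edgeR adjusted p = 0.336). All C75S libraries were below all WT libraries for both genes, as for 8.96% of all genes. *Fat4* and *Dchs1* were too low to test.

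**Figure D5:**
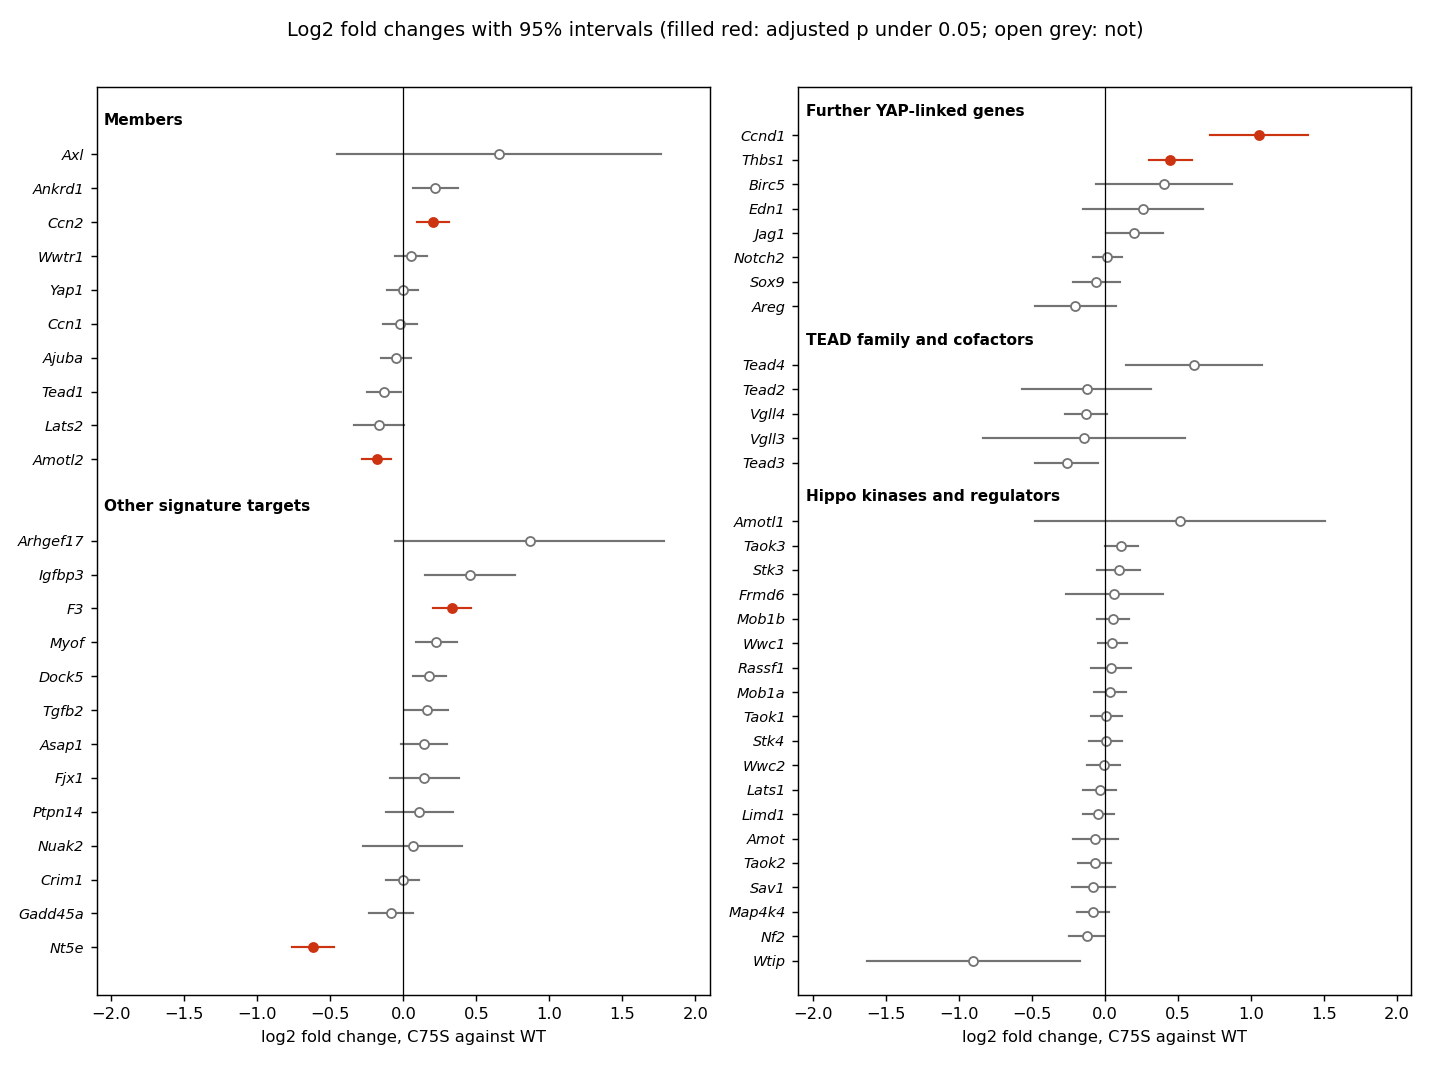
Log2 fold changes of C75S against WT with 95% intervals for the 10 genes and for tested genes of the 4 pathway lists, with 1 uncalled gene not drawn; filled red points have an edgeR adjusted p under 0.05, open grey points do not. The 6 red points are *Ccn2*, *F3*, *Ccnd1* and *Thbs1* above 0 and *Amotl2* and *Nt5e* below 0, while most Hippo kinases and regulators lie close to 0.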

How the data were processed

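RNA from 6 hepatocyte libraries was sequenced after TruSeq library preparation on a HiSeq3000, per the labels' protocols. The authors deposited raw counts per Ensembl gene, 1 file per library. The submitters' processing notes list Trim Galore 0.6.6, STAR 2.7.9a, edgeR 3.36.0 and the builds mm10 and GRCm38; the annotation release is not given in the sources used here. Multimapping reads (18.0% to 18.5%) and ambiguous reads (0.89% to 0.93%) are listed apart from genes, and the 4 summary rows were left out.

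Reverse-strand counts, 33.3 times the forward-strand counts, were filtered with filterByExpr (minimum count 10, minimum total 15), scaled by TMM and tested by genotype with edgeR 4.0.16 (R 4.3.3, quasi-likelihood, robust), with Benjamini-Hochberg adjustment over 12741 genes and a threshold of 0.05. SE is the log2 fold change over the root of F. Likeness used log2 CPM with a prior count of 2. Alternatives used DESeq2 1.42.0 and limma 3.58.1. In simulated libraries 200 of 12741 genes were changed 1.5-fold, and 12600 genes passed the filter. The test called 66.5% of the 200, and 8.28% of its calls were false. Smaller changes, such as those of *Ccn2* and *Amotl2*, were not simulated. Copies were sought with BLAST 2.17.0 (90% identity over at least 10% of the transcript); *Lats2* had 1. Exon lengths and positions are from GENCODE M21 (GRCm38); 55227 of 55487 gene rows matched it.

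The 10 genes and the lists were chosen with earlier results of these data known. Named were the 10 genes, up to 4 called genes per list by p or, where fewer than 2 were called, the 2 with the smallest p, and the 3 genes most like *Ccn1* and *Ccn2*. One gene of the lists is counted but not reported here by name.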

Additional observations from a re-analysis of the deposited data

How the results depend on the processing

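The count of genes called by edgeR, 396 with all 6 libraries, ranged from 201 without WT replicate 2 to 355 when 1 library was left out (253 without C75S replicate 1 and 246 without WT replicate 3), from 388 to 573 under the other edgeR settings, and was 387 by DESeq2 and 381 by limma-voom. The 2 called genes among the 10, *Ccn2* and *Amotl2*, were called under each of RLE, library-size and upper-quartile scaling, both other filters, DESeq2, limma-voom, unstranded counting and the replicate block. When 1 library was left out the count ranged from 0 to 2. It was 0 without C75S replicate 2 (4 genes at an unadjusted p under 0.05 in edgeR), 0 without WT replicate 2 (4 genes), 0 without WT replicate 3 (3 genes), 1 without C75S replicate 1 (*Ccn2*) and 1 without C75S replicate 3 (*Ankrd1*). These fits have fewer libraries. The 4 called genes of the pathway lists were called in all 15 alternatives, with *Myof* added without a filter or without C75S replicate 3. *Yap1* changed sign with library-size scaling (log2 fold change 0.0083) and when C75S replicate 1 (0.0194), WT replicate 2 (0.0255) or WT replicate 3 (0.0088) was left out. Its range over such fits was -0.043 to 0.0255. *Ccn1* changed sign without WT replicate 1 (0.0573), with a range of -0.0724 to 0.0573. The replicate numbers were not treated as pairs: deviations of same-numbered libraries from their group means correlated at 0.02, -0.04 and 0.03 over genes, among the C75S libraries replicate 3 alone correlated best with its own number, and with the replicate block 480 genes were called in all and 2 among the 10. Depth limits *Axl*, at 3 to 13 counts a library, and the lowest pathway genes.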

Other observations

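Other pathway genes also held the TEAD core motif in the 250 bases before a RefSeq start. Matches were found in 4 of 17 Hippo kinases and regulators with a window, 4 of 6 TEAD factors and cofactors, 2 of 10 other signature targets and 1 of 5 further YAP-linked genes. Over all gene symbols with a window the share was 14.4%, and whether the lists differ from it was not tested.

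An antisense gene, *Gm15270*, overlaps *Ccn2* on the opposite strand. With strand-specific counting it had 40, 52 and 40 counts in C75S and 41, 20 and 22 counts in WT, against 16194 to 19971 counts for *Ccn2*.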
